A study of Mus musculus with 18 samples.

Results

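Metabotropic glutamate receptor mRNAs of the hippocampus of 5×FAD and WT mice were examined for ac4C (N4-acetylcytidine), which is cytidine that carries an acetyl group. The genes were Grm2, Grm3, Grm4, Grm5, Grm7 and Grm8, and every ac4C peak listed under these 6 gene names was taken from the peak table of each mouse. This gave 40 of the 52494 listed peaks, on 4 of the 6 receptors, while 7598 genes carried a peak in at least 1 mouse. No peak was listed for Grm7 or Grm8 in any mouse.

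The tables came from acetylated RNA immunoprecipitation sequencing (acRIP-seq), in which RNA fragments pulled down by an antibody against ac4C are set against an input library of the same mouse. The 5×FAD group held 3 transgenic mice that carry human APP with the Swedish, Florida and London mutations and human PS1 with familial mutations. In the study's account of the line the APP transgene is driven by the murine Thy-1 promoter, which is active in neurons, and the line was made on the C57BL/6J background. The WT group held 3 mice without the transgenes, and all 6 mice were 6 months old.

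Metabotropic glutamate receptors are G protein-coupled receptors that tune transmission at glutamatergic synapses over a slower time course than ion channels do. The product of Grm5 belongs to group I, sits mainly on the postsynaptic side and acts through Gq, phospholipase C and release of stored calcium. Group II (Grm2 and Grm3) and group III (Grm4, Grm7 and Grm8) act through Gi/o to lower cyclic AMP and reduce transmitter release, and Grm3 is also made by astrocytes. Each receptor has a large extracellular domain that binds glutamate, a membrane-spanning domain and an intracellular tail that binds scaffold proteins. The acetyl mark itself is written by the enzyme NAT10 and has been tied to mRNA stability and to translation.

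Fold enrichment (FE) is the listed enrichment of a peak in the immunoprecipitated over the input library, and the FE of an mRNA is the sum over its peaks in a mouse, 0 where none was listed. Between 8459 and 10234 peaks were listed per 5×FAD mouse, against 7434 to 8375 per WT mouse, and no read counts come with them, so depth is unknown and error can be judged only from how far the mice of a genotype differ. 5×FAD mouse 3 stood apart. Its median FE per peak was 13.05, against 6.88 to 7.63 in the other 5 mice, its lowest listed FE was 4.06 against 2.03 to 2.29, and 6840 of its 8459 peaks were listed at a false discovery rate (FDR) of 100%. Marker genes of neurons carried a peak for 7 of 8 genes, with none on Camk2a, and those of microglia for 5 of 5. The counts were 3 of 5 for interneurons (none on Pvalb and Vip), 3 of 5 for astrocytes (none on Aqp4 and Gja1), 3 of 5 for oligodendrocytes and 2 of 4 for vessels (none on Cldn5 and Pecam1). A peak is enrichment over input and not expression, so a receptor without a peak cannot be told apart here from one whose mRNA is too scarce for a peak to be called. In whole tissue, fewer cells of a type and less acetylated RNA per cell cannot be told apart either.

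Among the receptors, 27 of the 40 peaks were annotated to coding sequence, 6 to the exon with the start codon, 6 to the exon with the stop codon and 1 to a 5′ UTR exon. Of the 40, 36 began and ended exactly on the ends of a RefSeq exon, so peaks resolve exons rather than bases, and an exon is called marked in a mouse where a peak was listed on it. The peak FE ran from 4.69 to 21.9 in 5×FAD and from 3.45 to 9.65 in WT. Only 10 of 22 receptor peaks in 5×FAD and 5 of 18 in WT lay above the median FE of all peaks in the same mouse. The listed FDR of the 40 peaks ran from 21.2% to 100%, and the 4 at 100% were all of 5×FAD mouse 3. Of 11 exon regions, made by merging the overlapping peaks of all mice, 3 were found in all 6 mice and 2 in 1 mouse. Over all 20043 regions of the series, 8.63% were found in 6 mice and 34.7% in 1.

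**Figure D1:**
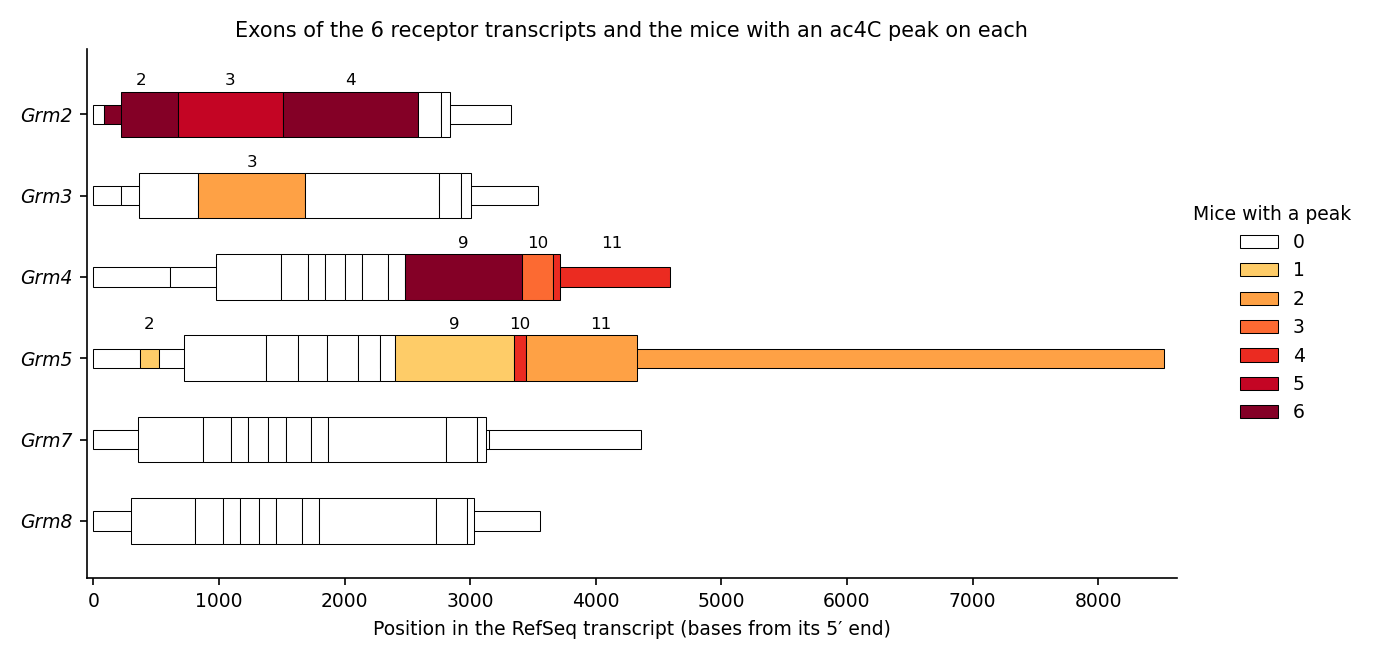
Exons of the RefSeq transcript of each receptor, to scale in bases from the 5′ end, with coding parts drawn tall and untranslated parts low. Colour gives the number of mice with an ac4C peak on the exon, from 0 to 6, and numbers name the exons with a peak: exons 2 to 4 of Grm2, exon 3 of Grm3, exons 9 to 11 of Grm4 and exons 2, 9, 10 and 11 of Grm5.

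Grm2, a presynaptic receptor that limits glutamate release, was marked in every mouse and over most of its coding sequence. Its gene lies at chr9:106644534-106656109 (mm10, minus strand) and has 6 exons. Exon 2, which holds the start codon, had an FE of 7.79, 4.99 and 7.78 in 5×FAD mice 1, 2 and 3, and of 9.27, 8.16 and 4.46 in WT mice 1, 2 and 3. The genotypes overlapped on this exon, and the lowest value was that of WT mouse 3. Exon 3, which with exon 2 codes for the glutamate-binding domain, had 7.84 and 7.28 in 5×FAD mice 1 and 2 and no peak in 5×FAD mouse 3, against 7.89, 6.23 and 4.75 in the WT mice. Exon 4, at chr9:106647151-106648226, had 11.03, 7.49 and 15.31 in the 5×FAD mice and 6.55, 8.10 and 5.25 in the WT mice. This 1076-base exon codes for most of the membrane-spanning domain, with 7 hydrophobic stretches in its translation, and its 5×FAD values overlapped those of WT through mouse 2 of each genotype. No peak was listed on exon 1, on the 181-base exon 5 or on the last exon in any mouse.

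The summed FE of Grm2 was 26.66, 19.76 and 23.09 in the 5×FAD mice and 23.71, 22.49 and 14.46 in the WT mice. It averaged 23.2 ± 3.45 in 5×FAD and 20.2 ± 5.03 in WT (SD, n = 3 each). Within each mouse, Grm2 stood above 56.6% to 76.9% of the mRNAs with a peak in 5×FAD and above 65.7% to 78.9% in WT, the highest place of any of the receptors except Grm5 in 5×FAD mouse 3. The 120-base stretch of exon 4 with the most cytosines is printed because it shows how dense the substrate base is where the peak was found in all 6 mice. It lies at chr9:106647538-106647657 and holds 50 cytosines, in capitals, 5′ to 3′ on the mRNA strand.
Grm2 exon 4: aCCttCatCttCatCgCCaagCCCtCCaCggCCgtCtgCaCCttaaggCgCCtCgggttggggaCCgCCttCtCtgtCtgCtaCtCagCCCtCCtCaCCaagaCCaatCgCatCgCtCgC

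Grm4, a group III receptor of presynaptic terminals, was also marked in every mouse, but only from exon 9 to the 3′ end. The gene lies at chr17:27425904-27513397 (mm10, minus strand), and exons are numbered here along a transcript of 11 exons. Exons 2 to 8, which code for most of the extracellular part, carried no peak in any mouse. Exon 9 (chr17:27434533-27435468), of 936 bases with 6 hydrophobic stretches, had an FE of 5.83, 4.69 and 8.88 in the 5×FAD mice and of 4.20, 4.11 and 3.45 in the WT mice. Every 5×FAD value lay above every WT value. All 6 were weak for their mouse, above 11.9% to 26.1% of the peaks of the same 5×FAD mouse and above 2.29% to 8.02% of those of the same WT mouse. On a common scale, where the values of each mouse were multiplied by a factor that equalises the median of the 2028 mRNAs found in all 6 mice, exon 9 stood at 5.07, 4.31 and 5.88 in 5×FAD and 4.72, 4.88 and 4.90 in WT, and the genotypes overlapped.

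The other marked exons of Grm4 were found in fewer mice. Exon 10 codes for the last membrane pass and most of the intracellular tail and had an FE of 8.45 in 5×FAD mouse 2 only, against 6.05 and 4.43 in WT mice 1 and 2. Exon 11 holds the stop codon and had 5.83 and 6.06 in 5×FAD mice 1 and 2, against 9.65 and 5.78 in WT mice 2 and 3. Exons 10 and 11 are present in 3 of the 4 RefSeq transcripts of Grm4, while the other ends in a different last exon that carried no peak. The summed FE of Grm4 was 11.66, 19.20 and 8.88 in the 5×FAD mice and 10.25, 18.19 and 9.23 in the WT mice, or 13.2 ± 5.34 in 5×FAD and 12.6 ± 4.91 in WT (SD, n = 3 each). The mice numbered 2, with peaks on all 3 exons, were the highest in both genotypes. Exon 10 is printed whole, since it is the short exon of Grm4 that was marked; it lies at chr17:27431332-27431578, and 80 of its 247 bases are cytosines, in capitals.
Grm4 exon 10: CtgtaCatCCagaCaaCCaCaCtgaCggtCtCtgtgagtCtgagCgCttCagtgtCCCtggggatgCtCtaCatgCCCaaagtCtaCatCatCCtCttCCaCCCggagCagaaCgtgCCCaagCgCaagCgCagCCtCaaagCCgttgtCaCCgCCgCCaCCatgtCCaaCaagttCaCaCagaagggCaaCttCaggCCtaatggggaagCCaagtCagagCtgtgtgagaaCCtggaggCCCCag

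Grm5, the group I receptor, was marked in all 3 5×FAD mice and in 1 WT mouse. The gene lies at chr7:87584168-88135063 (mm10, plus strand), and exons are numbered along the longer of its RefSeq transcripts, which has 11. Exon 10 is a cassette exon of 96 bases that only this transcript holds, and its 32 codons are inserted in the intracellular tail in the isoform known as mGluR5b. It had an FE of 5.75, 8.34 and 21.90 in the 5×FAD mice and of 6.28 in WT mouse 2, with no peak in WT mice 1 and 3. The value in 5×FAD mouse 3 was the highest of the 40 receptor peaks and lay above 79.7% of the peaks of that mouse. The WT value exceeded that of 5×FAD mouse 1, so the genotypes overlapped on this exon. Exon 10 (chr7:88116193-88116288) is printed whole because it was the Grm5 exon found in the most mice; 18 of its bases are cytosines, in capitals.
Grm5 exon 10: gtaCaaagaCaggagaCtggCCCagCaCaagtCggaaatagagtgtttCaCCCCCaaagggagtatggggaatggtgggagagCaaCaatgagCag

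The remaining Grm5 peaks were all of 5×FAD mice. The last exon, which codes for the end of the tail where the scaffold Homer binds and continues into the 3′ UTR, had an FE of 10.55 and 9.35 in 5×FAD mice 1 and 2 and was listed in no other mouse. Exon 2, a 5′ UTR exon, had 8.47 and exon 9, the 940-base exon of the membrane-spanning domain, had 8.99, both in 5×FAD mouse 3 alone and both below the median FE of that mouse. The summed FE of Grm5 was 16.30, 17.69 and 39.36 in the 5×FAD mice, against 6.28 in WT mouse 2 and 0 in WT mice 1 and 3. All 3 5×FAD mice were therefore above all WT mice, and 5×FAD mouse 3 was the highest in the group. Grm5 stood above 60.9%, 64.6% and 74.4% of the mRNAs with a peak in 5×FAD mice 1, 2 and 3, and above 26.1% in WT mouse 2.

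Grm3, the other group II receptor, had peaks on a single exon. Exon 3 (chr5:9569919-9570774, mm10, minus strand), of 856 bases in the coding region of the glutamate-binding domain, had an FE of 5.34 in 5×FAD mouse 1 and of 6.29 in WT mouse 1. Neither genotype had a peak in at least 2 of 3 mice, the part of the study's rule for a reliable ac4C mRNA that is used here. The study also asked for an adjusted p under 0.05 per peak and for the mRNA in RNA-seq. Those limits were not applied, so reliable refers here to the number of mice alone. Exon 4 of Grm3, at 1067 bases the counterpart of Grm2 exon 4, had no peak in any mouse, although the aligned bases of both exons were 67.8% identical.

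**Figure D2:**
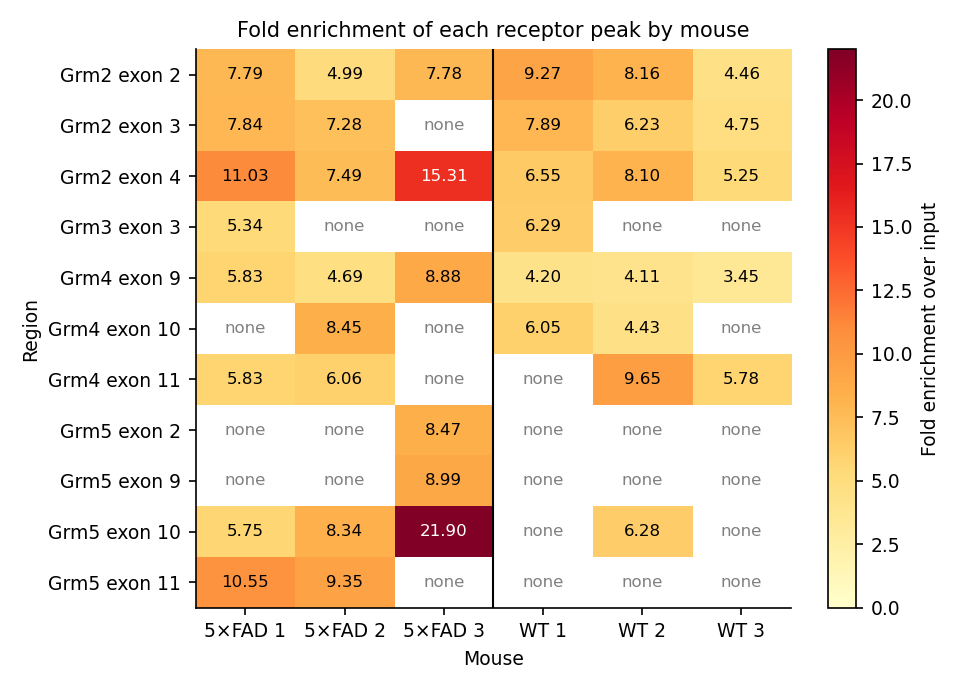
Fold enrichment over input of every receptor peak, with regions down the page and mice across it, 5×FAD mice 1 to 3 on the left and WT mice 1 to 3 on the right. Exons 2 and 4 of Grm2 and exon 9 of Grm4 have a value in all 6 mice, and the Grm5 rows hold 1 WT value, 6.28 on exon 10.

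Grm7 and Grm8, whose products reduce release at presynaptic active zones, lie at chr6:110645512-111567230 (plus strand) and chr6:27275121-28126426 (minus strand) and have the exon plan of Grm4. In all 3 genes the exon that codes for most of the membrane-spanning domain is 936 bases long and the next exon 247 bases. The 936-base exon of Grm4 was marked in 6 mice and those of Grm7 and Grm8 in none. Set base against base, the Grm4 exon was 70.5% identical to that of Grm7 and 71.5% to that of Grm8, and the exons of Grm7 and Grm8 were 72.6% identical to each other. The Grm4 exon held 313 cytosines, that of Grm7 228 and that of Grm8 241. Of the 313, 183 were also cytosine in Grm7 and 195 in Grm8. To show this, the exons of Grm4 and Grm8 are set side by side over the same 120 bases, those with the most cytosines in Grm4, with cytosines in capitals, 5′ to 3′ on the mRNA strand.
Grm4 (chr17:27434850-27434969): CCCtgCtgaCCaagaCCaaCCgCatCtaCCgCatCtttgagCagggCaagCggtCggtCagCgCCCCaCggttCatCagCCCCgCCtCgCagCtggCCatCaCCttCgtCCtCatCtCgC
Grm8 (chr6:27363402-27363521): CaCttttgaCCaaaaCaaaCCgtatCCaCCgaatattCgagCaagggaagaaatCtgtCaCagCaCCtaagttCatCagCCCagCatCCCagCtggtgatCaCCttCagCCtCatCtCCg
This stretch held 50 cytosines in Grm4 and 39 in Grm8, and its choice by the cytosines of Grm4 favours Grm4 in such counts. The motif CNNCNNCNN, described for ac4C sites, was searched on the mRNA strand with overlapping matches counted. It began 15 times in the Grm4 stretch and 7 times in that of Grm8. Over the whole 936-base exons it began 59 times in Grm4 and 22 times in Grm8.

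Whole coding sequences, marked or not, differed in composition as well. Cytosine made up 32.0% of the coding sequence of Grm2 and 31.9% of that of Grm4, the pair marked in every mouse. It made up 25.4% in Grm5, 24.5% in Grm3, 24.8% in Grm7 and 23.4% in Grm8. Cytosine stood at the third codon base in 45.1% of Grm2 codons and 48.2% of Grm4 codons, and in 28.5% to 34.5% of the codons of the other 4 receptors. The motif CNNCNNCNN began 5.31 times per 100 bases in Grm2 and 5.37 times in Grm4, against 1.61 to 2.65 times in the others. These are descriptions of 6 genes and no test was made on them.

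Exon by exon, composition and length both differed between marked and unmarked exons. The 10 coding exons with a peak had a median length of 893 bases and a median cytosine content of 31.7%, against 201 bases and 24.2% for the 39 coding exons without a peak. Within the 4 receptors that had any peak, the 19 unmarked coding exons had medians of 217 bases and 25.7%. Of coding exons with at least 800 bases, 7 of 14 carried a peak, and of shorter ones 3 of 35. Length and cytosine content are those of the whole exon, UTR parts included. Of the marked long exons, Grm4 exon 11 has 50 coding bases of 930 and Grm5 exon 11 has 889 of 5083. Grm2 exon 5 had the highest cytosine content of the coding exons, 34.8%, with 181 bases and no peak. Long exons rich in cytosine were unmarked as well. Exon 2 of Grm4 (887 bases, 30.2% cytosine) and exon 1 of Grm7 (875 bases, 32.1%), which hold the start codons, carried no peak in any mouse, with 4.62 and 5.71 starts of the motif per 100 bases. The Grm5 cassette exon went the other way, being marked in 4 mice with 18.8% cytosine and 1 start of the motif. Its cytosine content was higher than that of only 7.55% of the 20043 regions of the series. The 3 regions of Grm2 exceeded 67.6% to 77.8% of those regions in cytosine content and the 3 of Grm4 71.7% to 78.8%. Among regions within 20% of the same length, 73.2% held the motif for the cassette exon and at least 97.9% for the Grm2 and Grm4 regions.

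**Figure D3:**
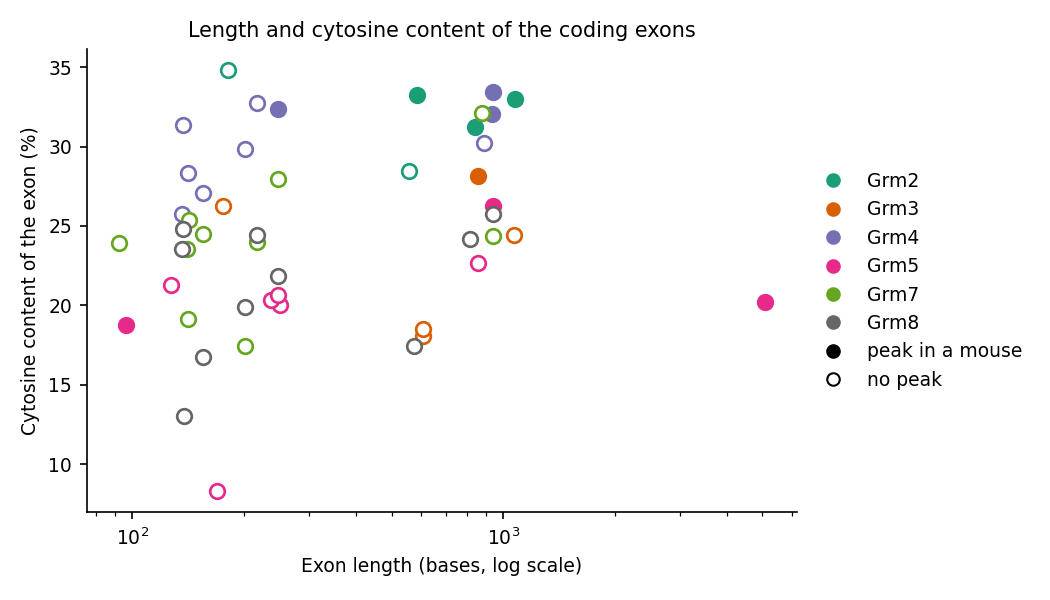
Cytosine content in percent against exon length in bases (log scale) for the 49 coding exons of the 6 receptors, UTR parts included. Points are filled where at least 1 mouse had a peak. The 3 marked exons of Grm2 and the 3 of Grm4 all lie above 31%, and the marked Grm5 exon at the left has 96 bases and 18.8%.

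The genotypes were compared to ask which receptors differ in ac4C once amyloid pathology is present. Summed FE was tested with limma on log2(FE + 1) over the 5444 mRNAs that were reliable in either genotype, with Benjamini-Hochberg adjustment. None of the 3 receptors tested (Grm2, Grm4 and Grm5) passed an adjusted p of 0.05, as was true of every mRNA (0%, 0 of 5444). Without 5×FAD mouse 3, 247 of 5052 mRNAs passed, and with a pseudocount of 0.1 in place of 1, 109 of 5444 did, with no receptor among them in either case. At an unadjusted p under 0.05, 5.03% of mRNAs were higher and 0.606% lower in 5×FAD, and Grm5 was the receptor among them. The log2 difference of Grm5, 5×FAD minus WT, was 3.60 ± 0.95 (SE, limma adjusted p = 0.384). The exact permutation test on its summed FE gave p = 0.1, the smallest possible with 3 against 3 mice. Without any 1 mouse the difference of Grm5 ran from 3.13 to 4.56, and it was 3.21 without 5×FAD mouse 3. Because 2 WT values are 0, its size depends on the pseudocount and was 5.82 with 0.1. No marker gene of a cell type passed the adjusted test. The FE summed over the 5 microglial genes was 101 to 144 in 5×FAD and 4.07 to 23.9 in WT, and over the 8 neuronal genes 374 to 620 in 5×FAD and 223 to 311 in WT. Sums over the astrocyte list overlapped, with 11.1 to 32.5 in 5×FAD and 8.33 to 35.5 in WT. Those of interneurons (23.0 to 53.9 in 5×FAD and 13.3 to 20.9 in WT), oligodendrocytes (231 to 257 in 5×FAD and 154 to 196 in WT) and vessels (60.7 to 125 in 5×FAD and 23.3 to 47.6 in WT) did not. All these marker sums are unscaled. The common scale multiplies 5×FAD values by 0.662 to 0.918 and WT values by 1.12 to 1.42, and the sums were not compared on it. The part of these lists in the Grm5 values was not tested.

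All 5×FAD mice above all WT mice was a common pattern, found for 14.6% of the mRNAs tested, against 0.771% for the opposite. It held for 1 of the 3 receptors, Grm5, and the opposite for none. By number of mice alone, Grm5 was reliable in 5×FAD only, and so were 18.5% of mRNAs. The study named a class of this kind AD unique in its 3-month-old mice, which were younger than those used here. Grm2 and Grm4 were reliable in both genotypes, as were 70.7%, and no receptor was among the 10.8% reliable in WT only. The median log2 difference over all mRNAs was 0.54, and 75.0% of mRNAs stood above 0. The receptors found in every mouse were below this median, Grm2 at 0.21 ± 0.52 (SE, limma adjusted p = 0.909) and Grm4 at 0.06 ± 0.59 (adjusted p = 0.985). On the common scale, where the median of all mRNAs was 0.02, Grm2 stood at -0.38 and Grm4 at -0.49, while Grm5 stood at 3.24, and none passed.

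**Figure D4:**
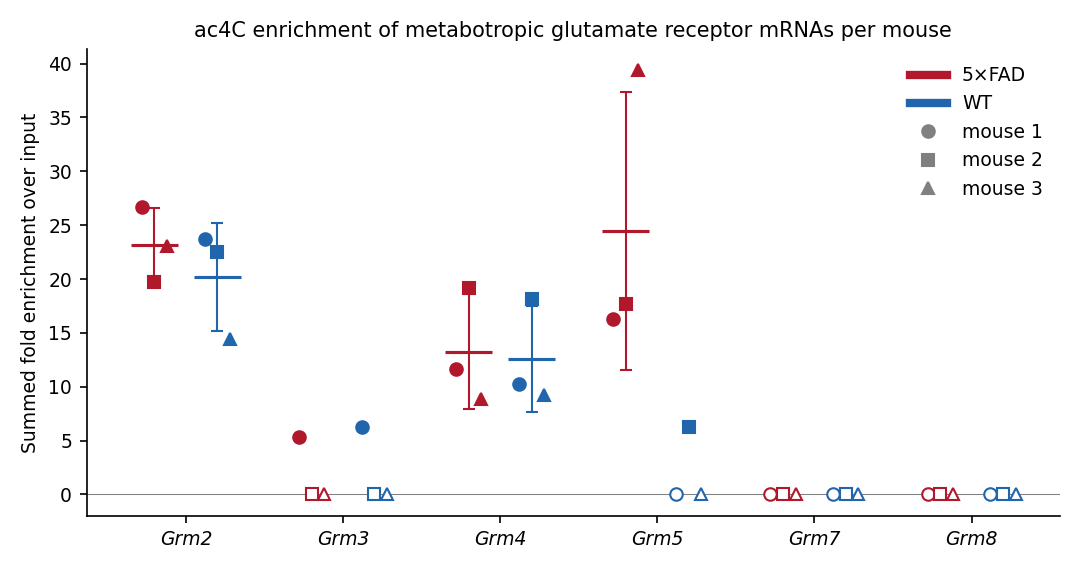
Summed fold enrichment over input of each receptor mRNA (vertical axis) in 5×FAD mice (red, left) and WT mice (blue, right), with 1 marker shape per mouse number and open markers where no peak was listed. Horizontal lines and bars give the mean and SD where all 3 mice had a peak; only for Grm5 do the genotypes not overlap, with 16.30 to 39.36 in 5×FAD and 0 to 6.28 in WT.

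Numbers of peaks per receptor come from the same peaks over which FE was summed. With all listed peaks counted, the mean number was higher in 5×FAD for Grm5. It was lower in 5×FAD for Grm2 and Grm4, whose mean summed FE was higher in 5×FAD. Grm5 had 2, 2 and 3 peaks in the 5×FAD mice and 0, 1 and 0 in the WT mice (exact permutation p = 0.1, two-sided). Grm2 had 3, 3 and 2 in 5×FAD and 3 in each WT mouse, and Grm4 had 2, 3 and 1 in 5×FAD and 2, 3 and 2 in WT (exact permutation p = 1 for each). Grm3 had 1 peak in each genotype. With only the 7434 highest-scoring peaks of each mouse, Grm5 had 2, 1 and 2 peaks in 5×FAD and 0, 1 and 0 in WT. The genotypes then met at 1 peak (exact permutation p = 0.2). How many of all mRNAs had peak numbers as far apart as those of Grm5 was not determined.

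By region, 8 of the 11 receptor regions were tested among 10025, and none passed, as for all regions (limma adjusted p, 0%). At an unadjusted p under 0.05, 4.57% of regions were higher and 0.539% lower in 5×FAD, and the Grm5 cassette exon was the receptor region among them, at a log2 difference of 2.54 ± 1.01 (SE, limma adjusted p = 0.482). The cassette exon was no longer in that class with the mouse number as a block, on the common scale, with a pseudocount of 0.1 or without any 1 mouse other than WT mouse 2. The last exon of Grm5, listed at 0 in all WT mice and in 5×FAD mouse 3, had an adjusted p of 0.482. Without 5×FAD mouse 3, 829 of 8844 regions passed, and on the common scale 195 of 10025. All 5×FAD mice were above all WT mice in 13.9% of regions and below them in 0.658%. Of the receptor regions, 1 of 8 was of the first kind, exon 9 of Grm4 (log2 difference 0.57 ± 0.54, limma adjusted p = 0.856), and none of the second. Within Grm2 the differences of the 3 exons did not run one way, with 0.65 ± 0.57 for exon 4, -0.78 ± 0.98 for exon 3 and -0.05 ± 0.57 for exon 2 (SE, limma adjusted p = 0.856, 0.856 and 0.999). Exon 3 stood at 0.25 without 5×FAD mouse 3, the mouse that had no peak there.

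Genes that work with the receptors were read from 5 lists of 92 names, 73 of which had a peak and 57 of which were tested. None passed the adjusted test. By limma without adjustment, 2 of the 57, Plcb3 and Pias1, were under 0.05 and higher in 5×FAD, where 5.03% of all mRNAs were. None was under 0.05 and lower, where 0.606% of all mRNAs were. On the common scale only Pias1 of the pair was under 0.05. In 9 of 57 (15.8%, against 14.6% of all mRNAs) all 5×FAD mice stood above all WT mice. The median log2 difference over the 57 was 0.44, against 0.54 over all mRNAs, and on the common scale -0.03, against 0.02. By list the unscaled median was 0.91 for the group I cascade and 0.18 for its scaffolds. It was 0.21 for Gi/o signalling, 0.54 for Gi/o partners and 0.86 for glutamate supply and clearance. Genes named from a list are those with its smallest p, so they do not stand for the list. In the cascade of group I receptors, 16 of 21 genes were tested. Plcb3, a phospholipase C activated by Gq, had a summed FE of 24.48, 24.35 and 20.89 in the 5×FAD mice and 7.90, 9.18 and 5.81 in the WT mice, with no overlap (log2 difference 1.51 ± 0.51 SE, limma adjusted p = 0.582, and 0.94 on the common scale). The protein kinase C gene Prkcb and the calcium release channel Ryr3 followed at log2 differences of 1.19 and 1.16 (limma adjusted p = 0.645 and 0.655), and at 0.64 and 0.58 on the common scale. Of the postsynaptic scaffolds and tail binders, 9 of 18 were tested, Tamalin and Grasp being names of the same gene. Shank2 and Shank3, which link receptors to the postsynaptic density, stood at 0.69 and 0.23, Grasp at 0.18 and Homer2 at -0.92 (limma adjusted p of 0.813 to 0.939). On the common scale Shank2 stood at 0.09 and Homer2 at -1.29, while Shank3 and Grasp turned to -0.37 and -0.41.

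For the Gi/o side, 19 of 28 signalling genes and 8 of 12 partner genes were tested, with median log2 differences of 0.21 and 0.54. The genes named here are again those with the smallest p. Pias1, a SUMO ligase that binds the tail of group III receptors, had 7.52, 4.91 and 29.87 in the 5×FAD mice and no peak in any WT mouse (limma adjusted p = 0.152; log2 difference 3.53, and 3.25 on the common scale). Macf1, Syn1 and Bsn stood at log2 differences of 1.79, 1.27 and 0.73, and the last of these encodes Bassoon, a scaffold of the active zone (limma adjusted p of 0.582 to 0.813). The adenylyl cyclases Adcy5 and Adcy2, whose product cyclic AMP these receptors lower, stood at 1.01 and 1.21, and the presynaptic calcium channels Cacna1b and Cacna1a at 1.12 and 0.68 (limma adjusted p of 0.607 to 0.794). On the common scale each of these 7 differences was smaller, with 0.07 for Cacna1a and 0.67 for Syn1. Of the genes that supply and clear glutamate, 5 of 13 were tested. The uptake carriers of astrocytes, Slc1a2 and Slc1a3, stood at 0.67 and 0.83, the neuronal carrier Slc1a6 at 1.18 and the glutamine transporter Slc38a3 at 0.86 (limma adjusted p of 0.780 to 0.813). On the common scale Slc1a2 stood at 0.07, Slc1a3 at 0.26, Slc38a3 at 0.33 and Slc1a6 at 0.78. Slc1a2 had 62.30, 72.67 and 82.64 in the 5×FAD mice and 51.24, 55.93 and 31.32 in the WT mice.

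The mRNAs whose summed FE was most like that of a receptor were found by the root mean square difference of log2(FE + 1) over the 6 mice, among 5443 others. For Grm2 these were Csk, Dennd2a and Rtn4rl2, at 0.15, 0.17 and 0.21. For Grm4 they were Lysmd2, Kcnc4 and Igsf9b, at 0.18, 0.20 and 0.23. For Grm5 they were Lsamp, Map3k1 and Btbd9, at 0.34, 0.39 and 0.46. Each had peaks in all 5×FAD mice and in WT mouse 2 and none in WT mice 1 and 3, which this way of choosing favours. Lsamp, a neuronal adhesion molecule, had 11.13, 11.69 and 38.21 in the 5×FAD mice and 4.81 in WT mouse 2.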

How the data were processed

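The 6 mice gave 18 libraries (antibody against ac4C, input and IgG), and 1 deposited peak table per mouse was analysed. According to the submitters' notes and the methods, the authors used cutadapt 1.9.3 and HISAT2 2.04 (build mm10), and MACS for peaks in each mouse against its own input, on exons of protein-coding genes, dropping peaks that overlapped IgG peaks. The methods define fold enrichment as the acRIP signal less the IgG signal, as a ratio over input; whether the deposited column is that value or the peak caller's ratio over input alone is unknown here. The deposited score is the −log10 of the peak p-value times 10, and its lowest value was 40. The deposited FDR is in percent, and no limit was set on it.

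Members and gene lists were chosen with earlier results of these data known. All 6 receptors, up to 4 list genes with the smallest p, the 3 most similar mRNAs per receptor marked in at least 4 mice and every receptor region found in at least 2 mice were named; 2 genes taken by this rule are not reported here, and counts include them. Summed FE and merged regions (overlap of at least 1 bp) were tested on log2(FE + 1), genotype only, with limma 3.58.1 (R 4.3.3), checked on simulated data. With 1 added, a log2 difference understates changes of weakly enriched mRNAs that have peaks in both genotypes. Where no peak was listed the value was 0, below the lowest listed FE of 2.03, which can enlarge the difference. Numbers of peaks were compared with exact permutation tests. Deviations of same-numbered mice from their genotype means correlated at 0.53, 0.47 and 0.29, so the numbers, which the labels give without a reason, were also used as a block. Sequences and exons are those of RefSeq on GRCm38.p6, read with pysam 0.24.0, with exons aligned in Biopython 1.88. Hydrophobic stretches are runs of 19-residue windows with a mean Kyte-Doolittle value of at least 1.6. Whether mice shared a litter is unknown here.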

Additional observations from a re-analysis of the deposited data

How the results depend on the processing

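No receptor and no receptor region passed the adjusted test under any alternative, except the last exon of Grm5 without 5×FAD mouse 3 (limma adjusted p = 0.00588). That mouse was the only 5×FAD mouse without the peak and all WT values were 0, so this pass follows from which mouse was left out and is no support. In all, 107 of 123 alternative log2 differences kept their direction and their side of the threshold. The replicate block changed no call at an adjusted p of 0.05, with 0 mRNAs and 0 regions passing and Grm5 at 3.60 (limma adjusted p = 0.473). The count of mRNAs passing was 109 with a pseudocount of 0.1 and 83 with the highest peak in place of the sum, and that of regions 284 with the pseudocount of 0.1 and 195 on the common scale. Leaving out 1 mouse gave 0 to 247 mRNAs and 0 to 829 regions, and both upper values were those without 5×FAD mouse 3. Grm5 stayed between 2.85 and 5.82 with adjusted p of 0.168 to 0.788, and the cassette exon between 2.03 and 4.69. These differences turned. Grm2 stood at -0.38 on the common scale and ran from -0.0052 to 0.33 with 1 mouse left out. Grm4 stood at -0.49 on the common scale, -0.034 with peaks of a score of at least 50 and -0.36 with the 7434 highest-scoring peaks of each mouse, and ran from -0.22 to 0.34 with 1 mouse left out. With 1 mouse left out, Grm2 exon 2 ran from -0.33 to 0.13, Grm2 exon 3 from -1.32 to 0.25 and Grm4 exon 11 from -1.22 to 0.74. The cause of these changes was not tested. The difference in mean number of Grm3 peaks, 5×FAD minus WT, was 0 and became -0.33 with either stricter choice of peaks, as the 5×FAD peak was dropped. In the test without the filter Grm3 stood at -0.07 (limma adjusted p = 1.00). An exon region dropped from a test where too few of the remaining mice held it gave no value. With unknown depth, a peak that is missing in a mouse cannot be told apart from one below the calling threshold.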
